A study of Mus musculus with 22 samples.

Results

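The genes described here are 31 genes of the contractile machinery of visceral smooth muscle, out of 46078 genes in the count table of mouse distal colon. They were chosen by symbol, from what the genes are known to do and with earlier results of these data known, and each of the 31 symbols was found in the table and passed the filter on low counts in every comparison. Distal colon RNA was sequenced from 3 groups: C57BL/6 controls (n = 8, 14 weeks old), Winnie mice (n = 7, also 14 weeks old) and Winnie mice in which the rectum had prolapsed, called Winnie-Prolapse (n = 7, 18 weeks old). Winnie mice carry a missense mutation in Muc2, the gene of the main intestinal mucin, and develop colitis without any added agent, and both Winnie groups share the mutation. The C57BL/6 group held 4 males and 4 females, the Winnie group 3 males and 4 females, and the Winnie-Prolapse group 4 males and 3 females. Age goes with the Winnie-Prolapse group, so prolapse and age cannot be told apart.

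The muscle coat of the colon lies outside the mucosa and holds a circular and a longitudinal layer of smooth muscle cells, which mix and propel the contents. In these cells acetylcholine acts on muscarinic receptors, calcium enters through voltage-gated channels and is released from stores, and the calcium signal activates myosin light chain kinase. The kinase phosphorylates the regulatory light chain, smooth muscle myosin pulls on actin filaments, and desmin filaments, dense bodies and integrin adhesions carry the force to the cell border. Serum response factor and its partner myocardin switch on many of these genes through CArG boxes in their promoters.

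The summed counts of the 31 genes made up 1.65% ± 0.342 (SD, n = 8) of all counts in C57BL/6 libraries, 0.895% ± 0.401 (n = 7) in Winnie libraries and 0.525% ± 0.167 (n = 7) in Winnie-Prolapse libraries. The share ran from 1.28% to 2.41% in C57BL/6, from 0.424% to 1.499% in Winnie and from 0.344% to 0.761% in Winnie-Prolapse. No Winnie-Prolapse library reached the lowest C57BL/6 library, whereas Winnie replicates 3 and 5, at 1.499% and 1.31%, lay inside the C57BL/6 range. The shares are described without a test, because the sum is set by its most abundant genes. In bulk tissue, fewer smooth muscle cells and less RNA of these genes in each cell cannot be told apart.

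**Figure D1:**
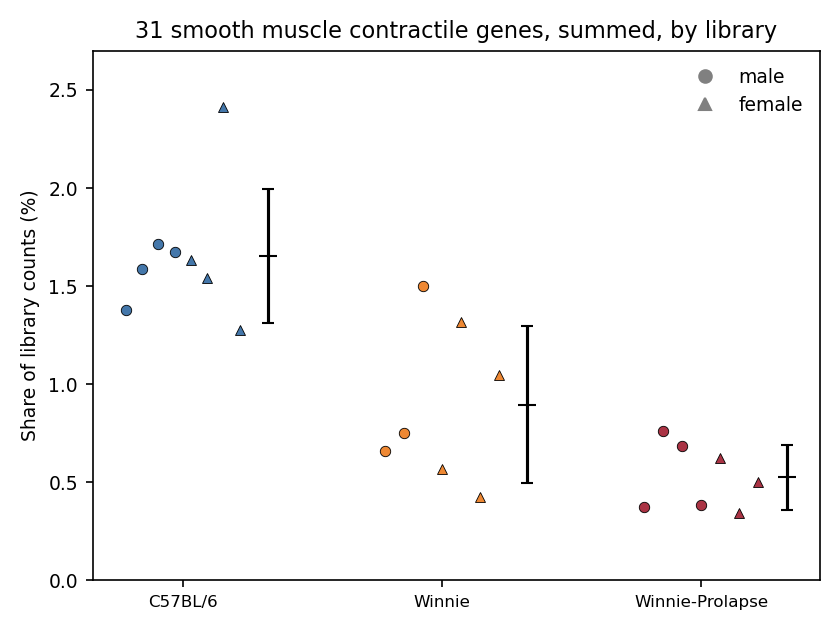
Share of each library's counts (vertical axis, %) taken by the 31 smooth muscle genes, by group, with males as circles, females as triangles, and the mean ± SD as bars. Winnie-Prolapse libraries sit between 0.344% and 0.761%, Winnie libraries spread from 0.424% to 1.499%, and C57BL/6 replicate 7 stands at 2.41%.

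Promoter sequences are shown for 3 genes, because CArG boxes are where serum response factor and myocardin act and because the 3 differ in their calls by the main rule below: Acta2 and Myl9 were lower in Winnie-Prolapse mice and Ldb3 was not called. Each run holds the 250 bases before a RefSeq start site on build GRCm38.p6, 5′ to 3′ on the gene's own strand. Capitals mark a CArG box (CC, then 6 bases that are A or T, then GG) or a CArG-like match in which 1 of the 6 bases may be C or G. The Acta2 run lies on chromosome 19 on the minus strand (chr19:34255374-34255623), the Myl9 run on chromosome 2 on the plus strand (chr2:156775214-156775463) and the Ldb3 run on chromosome 14 on the minus strand (chr14:34588682-34588931).
Acta2: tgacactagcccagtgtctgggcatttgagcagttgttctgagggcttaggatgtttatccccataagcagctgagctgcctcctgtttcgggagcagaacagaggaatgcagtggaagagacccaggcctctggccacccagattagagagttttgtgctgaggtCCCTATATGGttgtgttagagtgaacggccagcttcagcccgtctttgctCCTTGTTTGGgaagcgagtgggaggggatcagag
Myl9: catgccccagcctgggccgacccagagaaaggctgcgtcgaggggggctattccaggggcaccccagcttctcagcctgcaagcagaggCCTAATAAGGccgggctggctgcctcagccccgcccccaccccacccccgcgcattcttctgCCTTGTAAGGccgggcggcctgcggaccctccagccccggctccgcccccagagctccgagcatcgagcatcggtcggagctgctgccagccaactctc
Ldb3: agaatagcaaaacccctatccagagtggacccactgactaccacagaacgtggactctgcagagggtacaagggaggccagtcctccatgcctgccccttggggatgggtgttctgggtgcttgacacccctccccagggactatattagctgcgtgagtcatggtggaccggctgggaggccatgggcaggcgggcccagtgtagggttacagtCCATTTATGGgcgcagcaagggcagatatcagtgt
The matches began 84 and 34 bases before the start site in Acta2, 161 and 99 bases before it in Myl9, and 35 bases before it in Ldb3. RefSeq promoters were given for 27 of the 31 genes, but not for Myh11, Actg2, Tagln and Myocd. Windows of 300 bases (250 before the start and 50 after it) were searched, and the motif reads the same way on both strands. A CArG box was found in 2 of the 27 genes, Myl9 and Ldb3 (7.41%), against 1.81% of 27025 genes with a promoter in the table. With CArG-like matches counted as well, 5 of 27 genes (18.5%) held one, against 11.3% of all. The window is short, so a gene without a match may hold one elsewhere, and the motif was present both in genes that fell and in Ldb3, which was not called.

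Winnie-Prolapse mice were compared with C57BL/6 mice to ask whether all 31 genes fall together. In this comparison 25 of the 31 genes were lower and none was higher at an adjusted p under 0.001 and at least 1.5-fold (edgeR quasi-likelihood test, Benjamini-Hochberg over all genes tested, the limits the study set). Among all 17397 genes tested, 8.47% were lower by this rule. The fold change was below 0 for 30 of the 31 genes, against 50.8% of all genes, and the median log2 fold change was -1.54, against -0.01 over all genes. In 23 of the 31 genes every Winnie-Prolapse library lay below every C57BL/6 library, which held for 9.45% of all genes. At an adjusted p under 0.05 and at least 1.5-fold, 29 of the 31 genes were lower and 1, Ldb3, was higher (edgeR), against 17.7% and 16.7% of all genes. The 6 genes not called by the main rule were Ldb3, Itga8, Hspb7, Cacna1c, Kcnma1 and Chrm3.

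**Figure D2:**
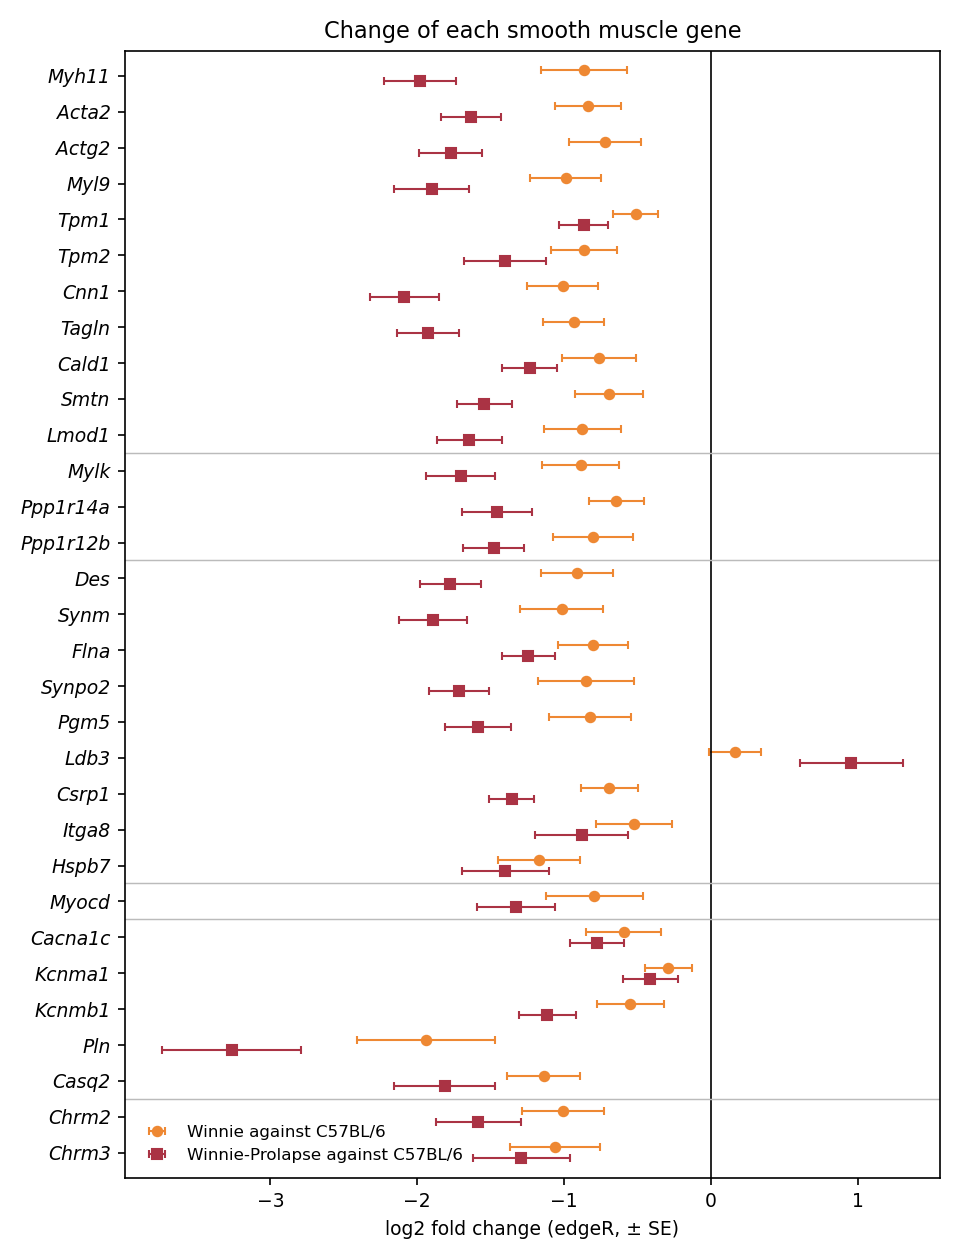
Log2 fold change against C57BL/6 (horizontal axis, edgeR estimate ± SE) of each of the 31 genes in Winnie (circles) and in Winnie-Prolapse (squares), with lines between the groups of roles. Winnie-Prolapse changes run from -3.26 in Pln to 0.96 in Ldb3, and 30 of 31 lie below 0 in each comparison.

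The 11 contractile filament genes (Myh11, Acta2, Actg2, Myl9, Tpm1, Tpm2, Cnn1, Tagln, Cald1, Smtn and Lmod1) fell in Winnie-Prolapse mice, by log2 changes from -2.09 to -0.87. Myh11 encodes the smooth muscle myosin heavy chain and lies on chromosome 16 (GRCm38, 14194535 to 14291372, minus strand). Its CPM (counts scaled to a common library total) were lowest 1420, median 1933 and highest 3154 in C57BL/6, 385, 848 and 2069 in Winnie, and 269, 476 and 722 in Winnie-Prolapse. The highest Winnie-Prolapse library was thus below the lowest C57BL/6 library, while Winnie libraries overlapped both ranges. Myh11 fell 3.95-fold in Winnie-Prolapse (log2 fold change -1.98, SE 0.25, adjusted p = 1.25e-05, edgeR).

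Tagln, which encodes the actin-binding protein transgelin, had the highest level of the 31 genes once counts were divided by exon length, at 937 ± 120 CPM per kilobase (SD, n = 8) in C57BL/6. Its CPM ran from 1503 to 2154 in C57BL/6 (median 1958), from 566 to 1415 in Winnie (median 707) and from 245 to 687 in Winnie-Prolapse (median 530). Neither Winnie group overlapped C57BL/6. Tagln was lower by 3.80-fold in Winnie-Prolapse (log2 fold change -1.93, SE 0.21, adjusted p = 4.21e-06, edgeR).

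Cnn1 encodes calponin, which binds actin and restrains the myosin ATPase. Its CPM had a minimum of 464, a median of 585 and a maximum of 1036 in C57BL/6, 135, 223 and 521 in Winnie, and 66.4, 131 and 208 in Winnie-Prolapse. Winnie replicate 5 was the only library of either Winnie group inside the C57BL/6 range. Cnn1 showed the steepest fall of the filament genes, 4.25-fold in Winnie-Prolapse (log2 fold change -2.09, SE 0.24, adjusted p = 5.82e-06, edgeR).

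The remaining filament genes followed with smaller changes. Actg2, the enteric smooth muscle actin, had CPM of 824 to 1544 in C57BL/6, 214 to 991 in Winnie and 166 to 401 in Winnie-Prolapse. Acta2, the actin shared with vascular smooth muscle and activated fibroblasts, had CPM of 1313 to 2167, 417 to 1551 and 330 to 780 in the same order. Both actins of the prolapse group lay below every C57BL/6 library. Their log2 fold changes in Winnie-Prolapse were -1.77 (SE 0.22) for Actg2 and -1.64 (SE 0.20) for Acta2. Myl9, the regulatory light chain of smooth muscle myosin, fell by 1.90 on the log2 scale, Lmod1 (leiomodin, an actin filament nucleator) by 1.64, Smtn (smoothelin) by 1.54 and Cald1 (caldesmon, which covers actin) by 1.23. Tpm1 and Tpm2 encode tropomyosins, which are made in striated muscle as well, and fell by 0.87 and 1.40. Of 15 fits that each left out 1 library, 11 called Tpm1 and 3 called Tpm2, whose highest adjusted p was 0.00185 (edgeR). The exons of Smtn overlap those of a gene on the other strand over 16.3% of their length, the largest overlap among 8 such genes, and the strand setting of the counting was not stated.

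The 3 genes that set the phosphorylation of myosin fell together. Mylk, which encodes myosin light chain kinase, had CPM of 785 to 2018 in C57BL/6, 251 to 1084 in Winnie and 185 to 442 in Winnie-Prolapse, and changed by -1.70 (SE 0.23) in Winnie-Prolapse. Ppp1r14a encodes an inhibitor of myosin phosphatase and changed by -1.46 (SE 0.24). Ppp1r12b encodes a targeting subunit of the same phosphatase and changed by -1.48 (SE 0.21). Genes of the kinase and of the phosphatase, whose products oppose each other, thus moved in 1 direction, with adjusted p from 2.96e-05 to 0.000135 (edgeR).

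**Figure D3:**
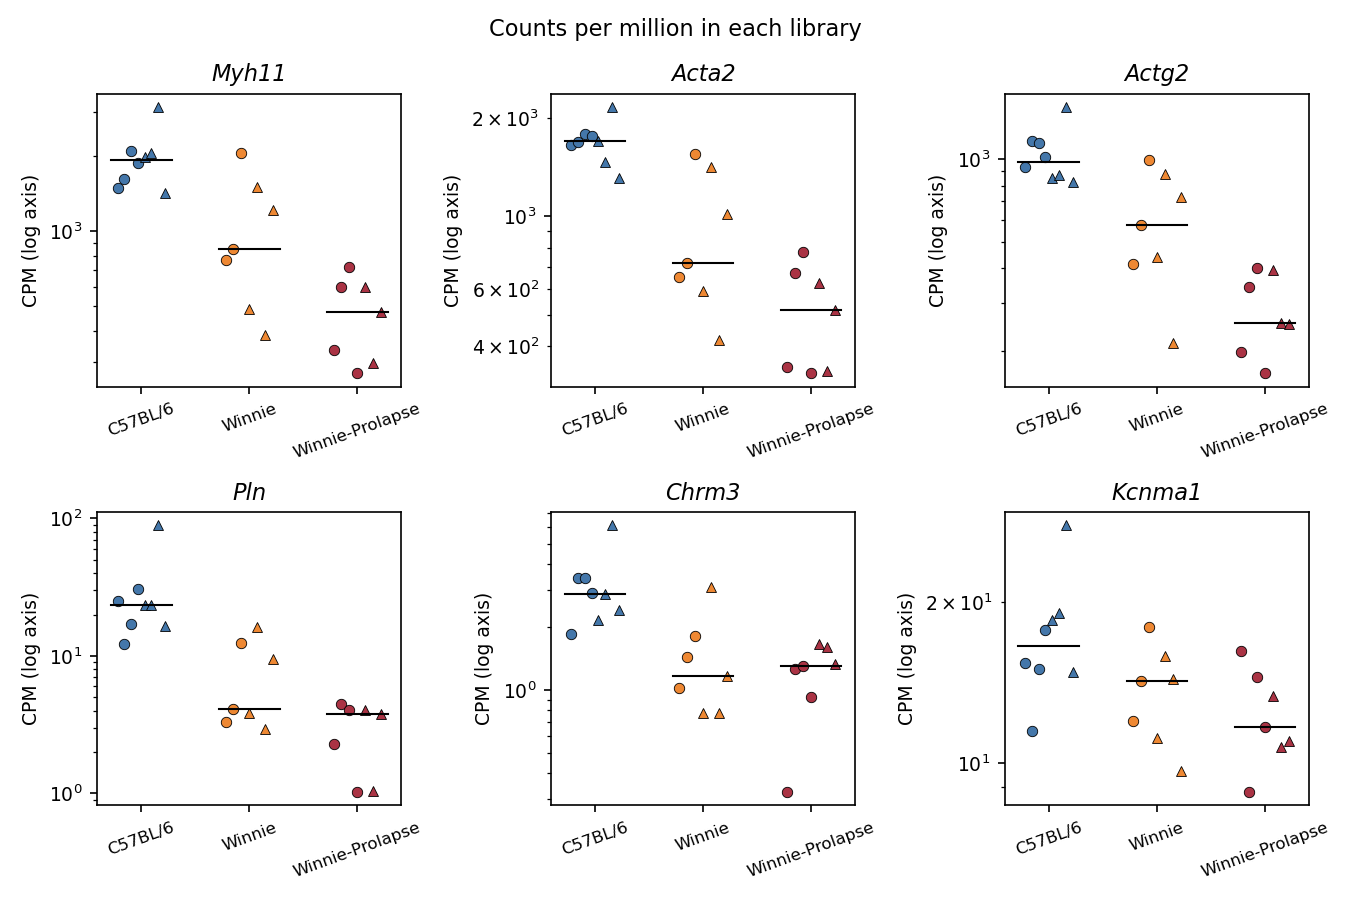
CPM in each library (vertical axis, log scale) of Myh11, Acta2, Actg2, Pln, Chrm3 and Kcnma1, with males as circles, females as triangles and a line at the group median. Winnie-Prolapse libraries lie below all C57BL/6 libraries except in Kcnma1, and Winnie libraries spread between.

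Of 9 genes of the cytoskeleton, adhesions and scaffold, 6 fell in Winnie-Prolapse mice. Des and Synm encode desmin and synemin, the intermediate filament proteins of muscle. Des had CPM of 952 to 1993 in C57BL/6 and 224 to 528 in Winnie-Prolapse, a log2 change of -1.77 (SE 0.21), and Synm changed by -1.89 (SE 0.23). Synpo2 and Pgm5, both of actin-rich adhesions and dense bodies, changed by -1.72 (SE 0.20) and -1.59 (SE 0.23). Csrp1, a LIM protein of smooth muscle, changed by -1.36 (SE 0.15) and Flna, the actin crosslinker filamin A, by -1.24 (SE 0.18). The largest adjusted p of these 6 genes was 4.58e-05 (edgeR). Hspb7, a small heat shock protein of heart and muscle, just missed the threshold, with a log2 change of -1.40 (SE 0.29) and an adjusted p of 0.00103. Itga8 encodes an integrin chain of smooth muscle and other contractile cells, and was 2.21 to 10.3 CPM in Winnie-Prolapse against 6.63 to 13.6 in C57BL/6. Its log2 change was -0.88 (SE 0.32, adjusted p = 0.0289, edgeR), and only Winnie-Prolapse replicate 6, at 10.3 CPM, lay inside the C57BL/6 range.

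Ldb3 was the exception to the shared direction. It encodes a protein of the Z-disc, the structure that anchors actin filaments in striated muscle, and its gene lies on chromosome 14 (GRCm38, 34526603 to 34588682, minus strand). Its CPM had a lowest value of 11.9, a median of 16.2 and a highest value of 32.96 in C57BL/6, 14.9, 20.02 and 24.9 in Winnie, and 13.6, 18.7 and 98.5 in Winnie-Prolapse. The high values belonged to Winnie-Prolapse replicates 2, 4 and 5, at 98.5, 47.3 and 37.0 CPM, and the other 4 libraries of the group lay between 13.6 and 18.7 CPM. The log2 fold change was 0.96 (SE 0.35) with an adjusted p of 0.0309 (edgeR), which did not pass the threshold.

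The same 3 libraries carried RNA of striated muscle markers. The 13 markers, among them Acta1, the skeletal muscle actin, and Ckm, the muscle creatine kinase, summed to 3426, 1204 and 419 CPM in Winnie-Prolapse replicates 2, 4 and 5, and to 11.8 to 22.1 CPM in the other 4 libraries of that group. The sum ran from 41.8 to 77.9 CPM in C57BL/6 and from 16.6 to 46.0 CPM in Winnie, apart from Winnie replicate 3 with 198.7 CPM. Without these 4 libraries the log2 fold change of Ldb3 in Winnie-Prolapse was 0.06 (SE 0.22, adjusted p = 0.853, edgeR, 4 against 8 libraries). Winnie-Prolapse replicate 2 was also the highest library of its group for Tpm1 (1274 CPM), Tpm2 (579 CPM), Casq2 (9.34 CPM) and Hspb7 (29.1 CPM), which are made in striated muscle too. Without the 4 libraries Tpm2 changed by -1.83 in place of -1.40, Casq2 by -2.44 in place of -1.81 and Hspb7 by -1.90 in place of -1.40, and Hspb7 was then called. Ppp1r14a (-1.28), Flna (-1.27), Myocd (-1.65), Kcnmb1 (-1.02) and Chrm2 were no longer called without them, in a fit of fewer libraries. Flna and Myocd fell more than with all libraries, and Ppp1r14a and Kcnmb1 less. Chrm2 was at -1.32 (adjusted p = 0.0102, edgeR) in place of -1.58. A total of 21 of the 31 genes were called, against 2.75% of all genes in the lower direction.

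**Figure D4:**
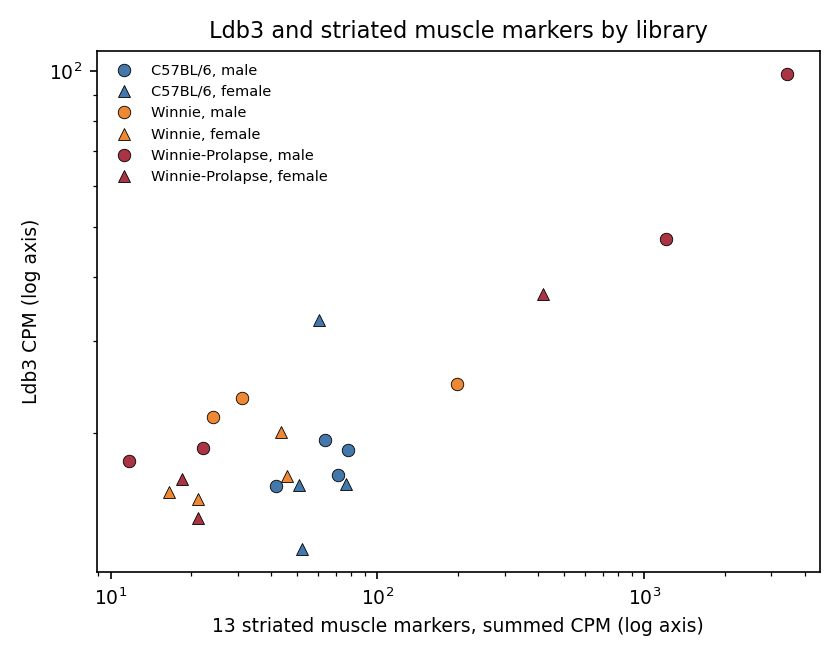
Ldb3 level (vertical axis, CPM, log scale) against the summed level of 13 striated muscle markers (horizontal axis, CPM, log scale) in each of the 22 libraries, with groups by colour and sexes by symbol. The 3 Winnie-Prolapse libraries with marker sums of 419 to 3426 CPM hold the 3 highest Ldb3 levels, 37.0 to 98.5 CPM.

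Myocd encodes myocardin, the partner of serum response factor in smooth muscle, and was a low gene in all groups. Its CPM ran from 4.41 to 12.8 in C57BL/6 (median 7.30), from 1.73 to 9.87 in Winnie (median 3.98) and from 1.63 to 4.56 in Winnie-Prolapse (median 3.09). The groups overlapped slightly, since Winnie-Prolapse replicate 2, at 4.56 CPM, lay just above the lowest C57BL/6 library. The log2 fold change was -1.33 (SE 0.27, adjusted p = 0.000691, edgeR), and Myocd was called in 6 of 15 fits that left out 1 library each. Srf, its partner, changed by -0.13 (SE 0.11, adjusted p = 0.347, edgeR).

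The channel and calcium store genes showed both the deepest and the shallowest falls. Pln encodes phospholamban, the inhibitor of the calcium pump of the sarcoplasmic reticulum, and lies on chromosome 10 (GRCm38, 53337667 to 53345987, plus strand). Its CPM had a lowest value of 12.3, a median of 23.3 and a highest value of 89.1 in C57BL/6, 2.93, 4.13 and 16.1 in Winnie, and 1.02, 3.79 and 4.46 in Winnie-Prolapse. Every Winnie-Prolapse library was below every C57BL/6 library, as were 5 of 7 Winnie libraries. Pln was 9.61-fold lower in Winnie-Prolapse (log2 fold change -3.26, SE 0.47, adjusted p = 4.85e-05, edgeR), the largest change of the 31 genes. Casq2, the calcium-binding calsequestrin of the store, changed by -1.81 (SE 0.35, adjusted p = 0.000479, edgeR) and was called in 8 of 15 fits that left out 1 library.

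Kcnma1, the pore of the large-conductance calcium-activated potassium channel that damps contraction, showed no change past the threshold. Its CPM was 11.5 to 27.8 in C57BL/6 (median 16.6), 9.68 to 18.0 in Winnie (median 14.2) and 8.83 to 16.2 in Winnie-Prolapse (median 11.7), and the 3 groups overlapped. Its log2 change in Winnie-Prolapse was -0.41 (SE 0.19, adjusted p = 0.0738, edgeR). Kcnmb1, the channel's smooth muscle beta subunit, was 17.3 to 29.3 CPM in C57BL/6 and 7.01 to 15.6 CPM in Winnie-Prolapse, without overlap, and changed by -1.11 (SE 0.19, adjusted p = 0.000214, edgeR). Cacna1c, the pore of the L-type calcium channel, changed by -0.78 (SE 0.18) with an adjusted p of 0.00244 (edgeR), and all 7 Winnie-Prolapse libraries lay below C57BL/6.

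The muscarinic receptor genes Chrm2 and Chrm3 receive the acetylcholine of enteric nerves. Chrm2, the more abundant receptor in gut muscle, was 22.9 to 45.2 CPM in C57BL/6, 8.08 to 33.5 in Winnie and 5.52 to 22.6 in Winnie-Prolapse, and changed by -1.58 (SE 0.29, adjusted p = 0.000344, edgeR) in Winnie-Prolapse. It was called in 12 of the 15 fits that left out 1 library each (highest adjusted p = 0.00122, edgeR). Chrm3, the receptor that chiefly drives contraction and that epithelium also makes, was 1.85 to 6.12 CPM in C57BL/6, 0.777 to 3.12 in Winnie and 0.326 to 1.67 in Winnie-Prolapse. No Winnie-Prolapse library reached the lowest C57BL/6 library in either gene. Chrm3 changed by -1.29 (SE 0.33) with an adjusted p of 0.00388 (edgeR), outside the threshold, and held the lowest level per kilobase of the 31 genes, 0.503 ± 0.212 CPM per kilobase (SD, n = 8) in C57BL/6.

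With males alone 0 of the 31 genes passed the rule (1.76% of all genes did) and with females alone 1, Pgm5, did (1.45% of all genes), while 26 and 27 genes were lower at an adjusted p under 0.05 (edgeR), against 12.6% and 15.2% of all genes, and the median log2 fold changes were -1.40 and -1.73. Leaving out 1 library at a time gave 21 to 25 called genes, against 5.98% to 9.46% of all genes called lower, and 20 of the 31 were called in every fit.

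Winnie mice not labelled as prolapsed were compared with C57BL/6 mice of the same age to ask whether the fall is present in them too. The Winnie groups hold different mice, so this comparison does not show a stage before prolapse. None of the 31 genes passed the rule of adjusted p under 0.001 and at least 1.5-fold (edgeR), which 0.0925% of all 17289 genes tested passed. At an unadjusted p under 0.05 there were 28 of 31 genes, against 39.9% of all genes, and DESeq2 called 6 genes (Myl9, Cnn1, Tagln, Hspb7, Pln and Casq2), against 5.5% of all genes, while limma-voom called 0 of the 31 and 0% of all genes. At an adjusted p under 0.05 and at least 1.5-fold (edgeR), 23 of the 31 genes were lower and 0 higher, against 8.53% of all genes lower and 7.42% higher. With males alone 10 of the 31 genes were lower at an adjusted p under 0.05, against 13.9% of all genes, and with females alone 0 were, against 0% of all genes (edgeR, smallest adjusted p of the 31 = 0.175). At an unadjusted p under 0.05 there were 25 of 31 genes in females, against 19.2% of all genes, and the median log2 fold changes were -0.64 in males and -1.01 in females. With both sexes the median log2 fold change was -0.84, against -0.01 over all genes, and 30 of 31 genes lay below 0, against 50.8% of all genes.

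Winnie libraries were not of 1 kind. The number of the 31 genes that lay below every C57BL/6 library was 29, 27, 5, 30, 4, 29 and 29 in Winnie replicates 1 to 7. Replicates 3 and 5, whose summed share also lay inside the C57BL/6 range, had the fewest such genes. In Winnie-Prolapse the same count was 29, 25, 29, 28, 29, 29 and 30. The share of all genes below every C57BL/6 library was not computed for single libraries, so these counts have no background beside them. Leaving out Winnie replicate 3 raised the looser count from 23 to 29 genes (8.73% of all genes were then lower), and leaving out Winnie replicate 1 lowered it to 13 (5.43% of all genes).

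By role, 10 of 11 contractile filament genes, 3 of 3 genes of myosin phosphorylation, 6 of 9 cytoskeleton and adhesion genes, 2 of 5 channel and store genes and both muscarinic receptors passed the looser rule in Winnie mice. Pln changed most, by -1.94 (SE 0.47, adjusted p = 0.0103, edgeR), followed by Hspb7 (-1.17, SE 0.28, adjusted p = 0.00951), Casq2 (-1.14, SE 0.25, adjusted p = 0.00668) and Chrm3 (-1.06, SE 0.31, adjusted p = 0.0207). Tagln was the only gene of the 31 whose Winnie and C57BL/6 libraries did not overlap (1.17% of all genes were lower without overlap), with a log2 change of -0.93 (SE 0.21, adjusted p = 0.00706, edgeR). The 8 genes outside the looser rule were Tpm1, which was lower by 1.43-fold, Synpo2, Itga8, Myocd, Cacna1c, Kcnma1, Kcnmb1 and Ldb3. Ldb3 had a log2 change of 0.16 (SE 0.18, adjusted p = 0.524, edgeR).

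Winnie-Prolapse mice were then compared with Winnie mice. None of the 31 genes passed the rule of adjusted p under 0.001 and at least 1.5-fold, nor did any of the 17041 genes tested (0%), by edgeR. At an unadjusted p under 0.05 there were 18 of 31 genes, against 27.8% of all genes, and DESeq2 and limma-voom called 0 of them, against 2.93% and 0% of all genes. At the looser rule Actg2 (log2 fold change -1.04, adjusted p = 0.0419), Cnn1 (-1.07, adjusted p = 0.0384) and Tagln (-0.99, adjusted p = 0.0453) were lower (edgeR), 3 of 31 genes against 2.72% of all. The median log2 fold change was -0.67, with 30 of 31 genes below 0 (49% of all genes), and the groups overlapped in each of the 31 genes (0.552% of all genes were lower without overlap). Both comparisons with C57BL/6 share the same 8 control libraries. The looser count rested on single libraries, being 13 without Winnie-Prolapse replicate 3 (4.9% of all genes were lower) and 0 without any 1 of Winnie replicates 3, 4, 5 and 7 or of the other 6 Winnie-Prolapse libraries (0.929% to 3.28% of all genes).

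Between males and females 0 of the 31 genes were called at an adjusted p under 0.05, against 0.0768% of all genes (edgeR over 22 libraries with group as a covariate, smallest adjusted p = 0.964). At an unadjusted p under 0.05 there were 0 of 31 genes, against 4.49% of all genes, and DESeq2 called 0. The sex by group interaction called 0 of the 31 genes in Winnie and 0 in Winnie-Prolapse, with smallest adjusted p of 0.294 and 0.9995 (edgeR), against 0.272% and 0% of all genes called. At an unadjusted p under 0.05 there were 0 and 1 (Hspb7), against 18.5% and 4.34% of all genes.

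Many of the 31 proteins have a cytoplasmic counterpart that most cell types make, so the muscle genes were set beside 14 such paralogues. In Winnie-Prolapse mice 4 of the 14 paralogues rose (9.84% of all genes were higher by the rule) and none fell, and their median log2 fold change was 0.44. Tpm3, a cytoplasmic tropomyosin, went from 332 to 420 CPM in C57BL/6 to 508 to 792 CPM in Winnie-Prolapse, without overlap, and rose by 0.93 on the log2 scale (SE 0.08, adjusted p = 5.47e-07, edgeR). Tpm4, another tropomyosin, rose by 0.73 and Tmod3, a tropomodulin that caps actin filaments, by 0.70. Myl12a and Cnn2 had log2 changes of 0.51 and 0.58 with adjusted p of 7.63e-05 and 0.000267 (edgeR), under 1.5-fold. Actb had 0.61 (adjusted p = 0.00907, edgeR), Myh9 0.36, Vim 0.35, Tagln2 0.34, Actg1 0.21, Myl12b -0.11, Cnn3 -0.15 and Myh10 -0.49. In Winnie mice 0 of 14 passed the looser rule, with a median of 0.26.

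**Figure D5:**
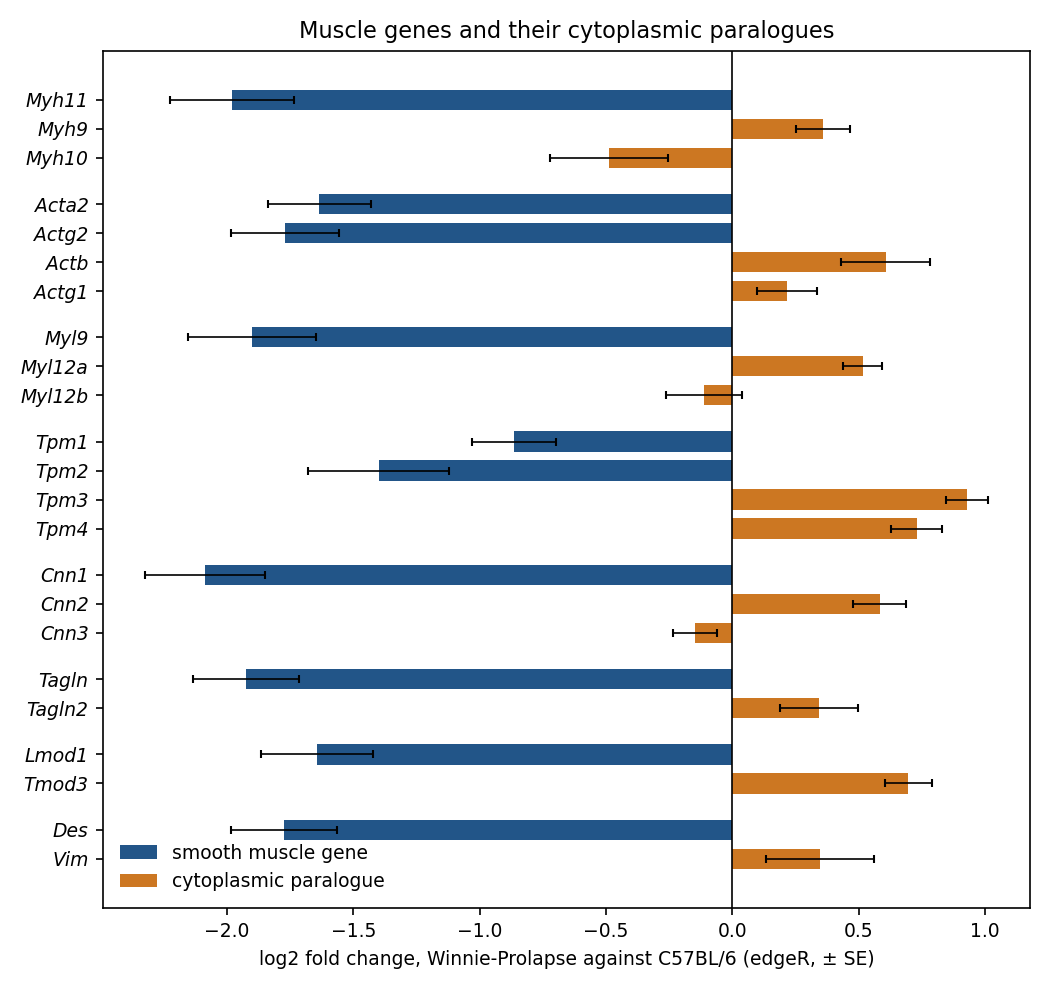
Log2 fold change of Winnie-Prolapse against C57BL/6 (horizontal axis, edgeR estimate ± SE) of muscle genes and of their cytoplasmic paralogues, grouped by protein family. Bars of the 10 muscle genes shown point left, from -2.09 to -0.87, whereas 10 of the 13 paralogues shown lie above 0.

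Ratios within a library do not depend on its total, so 4 pairs of genes were compared as log2 ratios of counts over the 3 comparisons, 12 tests in all, with p-values adjusted over the 12 and a limit of 0.05 on the adjusted p. The ratio of Myh11 to Myh9, the muscle to the non-muscle myosin heavy chain, was 1.60 ± 0.49 (SD, n = 8) in C57BL/6, 0.36 ± 0.89 (n = 7) in Winnie and -0.79 ± 0.71 (n = 7) in Winnie-Prolapse. The difference was -1.24 in Winnie (exact two-sided permutation test, p = 0.00264, adjusted p = 0.0106) and -2.39 in Winnie-Prolapse (exact p = 0.000155, the smallest this design allows, adjusted p = 0.00187), where 7 of 7 libraries lay below C57BL/6. Between the Winnie groups the difference was -1.15 (exact p = 0.0216, adjusted p = 0.0647). The ratio of Kcnmb1 to Kcnma1, the accessory to the pore subunit of the potassium channel, was 0.39 ± 0.24 in C57BL/6 (n = 8) and -0.37 ± 0.51 in Winnie-Prolapse (n = 7), a difference of -0.76 (exact permutation p = 0.00187, adjusted p = 0.0106), with 5 of 7 libraries below C57BL/6. It differed by -0.39 in Winnie against C57BL/6 (adjusted p = 0.262) and by -0.37 between the Winnie groups (adjusted p = 0.368), both outside the limit (exact permutation tests).

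The other 2 ratios had no adjusted p under 0.05 in any of the 3 comparisons. The ratio of Actg2 to Acta2, the enteric to the vascular actin, differed by 0.12 in Winnie and by -0.12 in Winnie-Prolapse (exact permutation test, adjusted p = 0.368 in both), and by -0.24 between the Winnie groups (adjusted p = 0.161). The ratio of Chrm3 to Chrm2 differed by 0.00 in Winnie, 0.34 in Winnie-Prolapse and 0.34 between the Winnie groups, with adjusted p from 0.459 to 0.993 (exact permutation tests).

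Beyond the 31 genes, 78 others of smooth muscle function were listed, of which 76 were tested in Winnie-Prolapse against C57BL/6. By the main rule 22 of them were lower and 2 higher in this comparison, against 8.47% and 9.84% of all genes, and their median log2 fold change was -0.45. Genes named below beyond the 3 most abundant of each list were named after their values were seen. Genes of relaxation through cyclic nucleotides were lower in 5 of 8 cases: Gucy1a1 (-1.54) and Gucy1b1 (-1.32), the subunits of the nitric oxide receptor, Adcy5 (-1.26), an adenylyl cyclase, Pde5a, the cyclic GMP phosphodiesterase (-0.77, SE 0.11), and Irag1, which links cyclic GMP to the calcium store (-1.42, SE 0.23). Pde3a had -0.16. Calcium entry and release genes were lower in 5 of 12 cases and higher in 1. The lower ones were Ryr2 (-1.85) and Itpr1 (-0.64), release channels of the store, Cacnb2 (-1.71), a calcium channel subunit, Trpc4 (-1.63), a cation channel, and Atp2b4, a calcium pump of the plasma membrane (-1.42, SE 0.22). The higher one was Atp2a2, the calcium pump of the sarcoplasmic reticulum that phospholamban inhibits and that non-muscle cells make as well. Atp2a2 was 261 to 394 CPM in C57BL/6 and 398 to 650 CPM in Winnie-Prolapse, without overlap, and rose by 0.85 on the log2 scale (SE 0.12, adjusted p = 3.76e-05, edgeR).

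Receptors of contraction were lower in 3 of 10 cases, namely Tacr2, a tachykinin receptor (-1.86), Agtr1a, an angiotensin receptor (-1.66), and Ptger3, a prostaglandin E receptor (-1.21, SE 0.24, adjusted p = 0.000684, edgeR). P2ry1, a purine receptor, had -0.71 (adjusted p = 0.00162) and Ednra, an endothelin receptor, 0.97 (adjusted p = 0.00449), both outside the threshold (edgeR). Adhesion, costamere and caveola genes were lower in 9 of 24 cases, whereas their most abundant member Fhl1 had -1.27 with an adjusted p of 0.00258 (edgeR), Itgb1 had 0.21 and Lpp -0.16. Of 11 genes of transcription control 0 were called, with Klf4 at -0.49 and Mef2d at 0.21. In Winnie against C57BL/6, 0 of 75 genes passed the main rule, and 22 were lower and 0 higher by the looser one, against 8.53% and 7.42% of all genes.

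Markers of some other cell types fell with the 31 genes, while others rose or were not called, and their part in the result was not tested. In Winnie-Prolapse against C57BL/6, 8.47% of all genes were lower and 9.84% higher by the main rule. Enteric neuron markers, which share the muscle coat with smooth muscle, were lower in Winnie-Prolapse for 7 of 8 genes (median log2 fold change -2.12), and their sum was 88.6 to 210.5 CPM in C57BL/6, 29.5 to 98.2 in Winnie and 26.0 to 58.5 in Winnie-Prolapse. Stmn2 and Snap25, both neuronal, changed by -2.14 and -1.74 in Winnie-Prolapse, and Ret had -0.12. Enteric glia markers were lower for 3 of 7 genes, among them S100b (-2.19) and Foxd3 (-1.96), and interstitial cell of Cajal markers for 1 of 5, Kit (-1.18), with 1 higher, Gja1 (1.41), a gap junction gene that many cells make. In Winnie mice 8 of 8 neuron markers and 6 of 7 glia markers were lower by the looser rule, against 8.53% of all genes.

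Leukocyte markers were higher in 4 of 8 cases in Winnie-Prolapse (Itgam, Cd3e, Laptm5 and Csf1r), against 9.84% of all genes. Their sum was 76.8 to 385 CPM in C57BL/6, 196 to 411 in Winnie and 228 to 784 in Winnie-Prolapse. Squamous epithelium markers were higher in 4 of 4 tested genes (Krt5, Krt13, Krt14 and Sprr1a), with a sum of 3.46 to 47.3 CPM in C57BL/6 and 106 to 2849 in Winnie-Prolapse. Epithelium markers were called in 0 of 8 cases in either direction, and their sums overlapped (12060 to 14040 CPM in C57BL/6 and 9709 to 17810 in Winnie-Prolapse). Fibroblast markers were called in 0 of 7 cases by the main rule. By the looser one 3 were higher and 1 lower, against 16.7% and 17.7% of all genes. Col1a1, a chain of type I collagen, had a log2 change of 1.19 (SE 0.28, adjusted p = 0.00248, edgeR) and was above every C57BL/6 library in 5 of 7 Winnie-Prolapse libraries, with Col3a1 at 0.62 and Dcn at 0.19. Fat markers were called in 0 of 5 cases. Endothelium markers had 1 of 7 higher, Cdh5, and 0 lower, against 9.84% and 8.47% of all genes. Of 7 pericyte markers 1, Notch3, was higher and 0 lower by the main rule, while 5 had log2 changes below 0 (median of the 7, -0.39) and 2 were lower and 2 higher by the looser rule. Rgs5, the most abundant of them, had a log2 change of -1.46 (SE 0.53, adjusted p = 0.0296, edgeR), with 983 CPM in C57BL/6 replicate 7 against a control median of 123. In Winnie mice 4 of the 7 pericyte markers were lower and 0 higher by the looser rule, against 8.53% and 7.42% of all genes. Rgs5 was at -1.68 there (SE 0.53, adjusted p = 0.0306, edgeR). Pericytes and vessel walls also make Acta2, Myh11 and Tagln, and the pericyte sum was 174 to 1173 CPM in C57BL/6, where replicate 7 held the top value, 101 to 228 in Winnie and 121 to 299 in Winnie-Prolapse.

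Libraries held 24817527 to 36344372 counts, so the floor of 3 counts stood at 0.0825 to 0.121 CPM, below the lowest value of any of the 31 genes (Chrm3, 0.326 CPM in Winnie-Prolapse replicate 1). Milk protein genes took 17.96% of the counts of Winnie-Prolapse replicate 6, against at most 0.00542% in any other library. With TMM scaling the summed shares were 1.59%, 0.898% and 0.535% in C57BL/6, Winnie and Winnie-Prolapse. The labels do not say whether libraries came from separate litters, so p-values measure the spread between these mice.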

How the data were processed

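Distal colon RNA of 22 mice in 3 groups was analysed, with groups, sex and age taken from the labels, and replicates were numbered in accession order. The study's methods give fewer Winnie colon samples than the labels and another RNA extraction kit; every labelled sample was used. The authors selected poly(A) RNA, made stranded libraries, sequenced paired ends and ran RNAsik 1.5.4 on GRCm38. The submitters' processing notes also name STAR, featureCounts and limma. The deposited values are raw read counts per gene, with no normalization; the annotation release and strand setting are not given in the sources used here.

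Counts were tested with edgeR 4.0.16 (R 4.3.3, quasi-likelihood F test, TMM, filterByExpr, Benjamini-Hochberg over all genes tested), each comparison on its own 2 groups. Called genes had an adjusted p under 0.001 and a change of at least 1.5-fold, the study's limits; a looser rule used 0.05. DESeq2 1.42.0 and limma-voom 3.58.1 were alternatives. CPM are counts scaled by library totals. Log2 ratios used counts plus 0.5 and exact permutation tests. All 31 genes are named, with cytoplasmic paralogues and up to 3 most abundant genes of each other list, beyond which names were added after values were seen. Some genes of these lists are not reported here. The genes and lists were chosen with earlier results of these data known. Of 206 list genes, 7 were found under older symbols. Positions came from GENCODE M21, promoters from RefSeq (GRCm38.p6). The fits were tested on simulated data. Libraries held 24817527 to 36344372 counts, and no pair of a group agreed within sampling noise (lowest chi-square per degree of freedom 28.8). Floors cover counting error only.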

Additional observations from a re-analysis of the deposited data

Results flagged for a closer look

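Within each group of 7 or 8 libraries the highest and lowest library was compared with its nearest neighbour by Dixon's criterion. Chance exceeds it in about 1 of 20 groups if values are normally distributed, which was not checked for CPM. It was exceeded in 22 of 108 groups tested, each time by the highest library. The genes are measured in the same libraries, so these are not 22 separate events.

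C57BL/6 replicate 7, a female, stood above the other 7 controls in 15 of the 22. Its CPM was 3153.5 for Myh11, 1544.5 for Actg2, 1278.2 for Myl9, 2019 for Tpm1, 1036.3 for Cnn1, 2017.9 for Mylk and 300.55 for Ppp1r12b. It was 1992.6 for Des, 1848.7 for Flna, 32.964 for Ldb3, 13.62 for Itga8, 27.82 for Kcnma1, 89.075 for Pln and 6.1219 for Chrm3, and the summed share of the 31 genes was 2.4135%. The same library held pericyte markers at 1173 CPM in sum, against 174 to 301 CPM in the other controls. Without it 24 of the 31 genes were called lower in Winnie-Prolapse against C57BL/6, as were 9.35% of all genes.

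Winnie-Prolapse replicate 2, a male, stood above its group for Tpm1 (1274 CPM), Tpm2 (578.71 CPM), Ldb3 (98.484 CPM) and Casq2 (9.344 CPM), and held the largest sum of striated muscle markers, 3426 CPM. Winnie replicate 3 stood above its group for Casq2, at 11.259 CPM, with a striated marker sum of 198.7 CPM. Winnie-Prolapse replicate 6 stood above its group for Itga8, at 10.315 CPM. It held the highest enteric glia marker sum of its group, 40.58 CPM, and milk protein genes took 17.96% of its counts. Winnie-Prolapse replicate 3 stood above its group for Chrm2, at 22.602 CPM. The part of these markers and of the milk protein genes in the values was not tested.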

How the results depend on the processing

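No called value changed sign under any alternative run. In Winnie against C57BL/6 the count of called genes was 0 by edgeR, 6 by DESeq2 and 23 at an adjusted p under 0.05 and at least 1.5-fold. In Winnie-Prolapse against C57BL/6 the 25 called genes became 0 with males alone and 1 with females alone, where fewer libraries were compared, 28 by DESeq2 and 25 by limma-voom, which called 20.8% and 17.6% of all genes. In Winnie-Prolapse against Winnie the count of 0 became 3 at the looser rule. Leaving out 1 library at a time moved the Myh11 to Myh9 ratio between the Winnie groups from -1.35 to -0.97 (adjusted p 0.0297 to 0.140, exact permutation tests) and the Actg2 to Acta2 ratio from -0.31 to -0.19 (adjusted p 0.0367 to 0.312). Of the values of single genes under the other alternatives, 852 kept their direction and side of the threshold, 13 passed it, 58 no longer did, and 7 that were not called changed sign. These were Ldb3 in Winnie against C57BL/6 with females alone (0.16 to -0.08) and, in Winnie-Prolapse against Winnie, Hspb7 with males alone (-0.22 to 0.23), Itga8 (-0.35 to 0.15) and Chrm3 (-0.22 to 0.13) with females alone, and Ldb3 (0.81 to -0.05), Itga8 (-0.35 to 0.12) and Kcnma1 (-0.12 to 0.12) without the libraries high in striated muscle markers. Chrm3 also changed sign there without Winnie replicate 5 (-0.22 to 0.08). The alternative without libraries high in striated muscle markers was chosen after seeing the data. No paired analysis was possible because replicate numbers were given in accession order and the groups hold different mice. The lowest count of any of the 31 genes in any library was 11, for Chrm3, so the values of Chrm3 carry the most counting error.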
